A study of Mus musculus with 17 samples.

Results

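The mouse genome annotation holds many protein-coding genes that carry no descriptive name, only a provisional symbol made of Gm and a number or a symbol from a cDNA collection that ends in Rik. Of the 2615 genes in the deposited oocyte table, 2259 were protein coding, and 121 of these had such a symbol, 68 of the Gm kind and 53 of the Rik kind. They were selected by biotype and symbol only, with 2410141K09Rik left out. The study asked what happens to mouse oocytes and their embryos when EHMT2 is lost from the growing oocyte, and 6 libraries of poly-A RNA from C57BL/6J oocytes at 8 weeks of age were sequenced, 3 for each genotype. The control libraries, replicates 1, 2 and 6, came from Ehmt2(flox/flox) females, and the Ehmt2GKO libraries, replicates 3, 4 and 5, from Ehmt2(flox/flox); Gdf9-Cre females, so that the floxed alleles were shared and only the Cre transgene differed. Cre is driven by the Gdf9 promoter, which is active in oocytes from the primordial follicle onward, and it removes exons 4 to 20 of Ehmt2. The labels call the cells MII oocytes, and the methods call them superovulated oocytes. The paper reports that few Ehmt2GKO oocytes finished the first meiotic division, so the groups may differ in meiotic stage as well as in genotype. The parts of stage and genotype cannot be told apart here. Neither the labels nor the methods say that the libraries came from separate animals. Each P value thus measures the spread between these libraries, which may be partly technical.

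EHMT2, also known as G9a, is a methyltransferase that places the dimethyl mark on lysine 9 of histone H3, a mark of repressed chromatin in gene-poor regions and over repeats. Many Gm genes are young tandem copies, among them genes of the PRAME family of leucine-rich repeat proteins, genes of the takusan family related to Dlg5, and X-linked copies of Ott, a gene transcribed in ovary and testis. Many Rik genes are instead single-copy genes with a counterpart in the human genome that was long known only as an open reading frame.

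The deposited table limits what can be counted. All 2615 genes in it carry a deposited adjusted P value under 0.05, so a gene that did not differ is not listed, and shares given here are shares of that table, not of the transcriptome. Ehmt2 itself was not among the listed genes, and its level could not be used to check the labels. Reads on listed genes ranged from 4060653 to 4258350 per library. Of the 14 oocyte markers 5 were listed and their summed normalized count ranged from 33245 to 42452 in the control and from 41571 to 44684 in the Ehmt2GKO libraries. Of these 5, Zp3 fell and no other passed both thresholds. The sum joins genes that moved in opposite directions, since Mos and Nlrp5 had log2 fold changes of 0.51 and 0.42 and Zp1 and Zp2 of -0.86 and -0.40. Of the 24 cumulus and granulosa cell markers 2 were listed, with sums of 324 to 367 and 259 to 349. Of these 2, Ptgs2 rose, and Kitl had a log2 fold change of -0.63 ± 0.16 and was not called. The part of follicle cells in the results was not tested, and a lower number of transcripts per gene and less RNA per oocyte cannot be told apart in bulk libraries.

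Gm genes were called higher far more often than lower in Ehmt2GKO oocytes, and Rik genes more often lower than higher. A gene was called when its log2 fold change, Ehmt2GKO over control, was above 1 or below -1 with an adjusted P value under 0.01 in the edgeR quasi-likelihood test run over the whole table. Of the 121 genes 113 had counts high enough to be tested, and 37 were called higher and 16 lower. Over all 2516 tested genes 18.7% were called higher and 16.9% lower, so that 35.7% were called in either direction, and over the 2085 tested protein-coding genes with other names the shares were 16.7% and 14.5%, or 31.2% together. Among 61 tested Gm genes 33 were called higher (54.1%) and 6 lower (9.84%). Among 52 tested Rik genes 4 were called higher (7.69%) and 10 lower (19.2%). The median log2 fold change was 1.32 for tested Gm genes and -0.59 for tested Rik genes, against -0.32 for all tested genes and 0.33 for the other protein-coding genes. Over both kinds together the median was -0.34, and it lay in a gap between a falling and a rising group of genes, so that leaving out control replicate 6 alone moved it to 0.40.

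Many of the risers had low counts. Below a mean of 100 normalized counts, 30 of 42 tested genes of the Gm and Rik kinds were called higher and 9 lower, beside 223 and 158 of 426 for the other protein-coding genes in that range. From 100 to 1000 normalized counts the calls were 6 higher and 5 lower of 46 (13% and 10.9%), near the 11.3% and 12.2% of the other protein-coding genes in that range. Above 1000 they were 1 higher and 2 lower of 25, beside 1.83% and 3.51%. A gene that was high in 1 group only could pass the count filter through that group alone, so these counts describe the table and are not support for a direction. When every library had to hold at least 10 counts, the calls were 14 higher and 12 lower. Normalized counts, here and below, are deposited counts divided by a size factor per library. With 3 libraries against 3, an exact permutation test of a single gene cannot give a P value under 0.10, and 117 of the 121 genes reached that value because their groups did not overlap. Groups did not overlap for 96.1% of all tested genes and 95.9% of the tested protein-coding genes with other names.

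The sharpest rise with deep counts was that of Gm4353 (chr7:116082863-116084635, minus strand of GRCm38), a near-identical copy of Nup35, which encodes a nuclear pore protein. Its normalized counts were 720, 789 and 556 in the control libraries and 12480, 15413 and 14123 in the Ehmt2GKO libraries. Every Ehmt2GKO library was thus far above every control library, a 20.3-fold difference of the means (log2 fold change 4.25 ± 0.14 SE, adjusted P = 3.1e-13, edgeR). Nup35 was listed as well, at 13693, 15410 and 16698 counts in the control libraries and 19466, 22893 and 19656 in the Ehmt2GKO libraries, with a log2 fold change of 0.43 ± 0.11. Along 99.2% of Gm4353 its transcript matched Nup35 at 99.6% of bases, so reads can be shared between the pair, and how the authors treated such reads is not given in the sources used here. The annotation also places Gm4353 within 1110004F10Rik and 1700003G18Rik.

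Gm11232 (chr4:71755643-71757965, minus strand) was nearly silent in control oocytes. Its normalized counts were 7.85, 10.6 and 14.5 in the control libraries and 337, 496 and 514 in the Ehmt2GKO libraries, a 40.9-fold higher mean (log2 fold change 5.24 ± 0.26, adjusted P = 7.2e-11, edgeR). No near-identical copy of it was found in the annotation. 4931408C20Rik (chr1:26681814-26687460, minus strand), a gene of the SPATA31 family, many of whose members are expressed in the male germ line, had normalized counts of 7.85, 0 and 1.93 in the control libraries and 149, 101 and 209 in the Ehmt2GKO libraries. All 3 Ehmt2GKO libraries exceeded the highest control library by more than the whole spread of the controls (log2 fold change 5.41 ± 0.52, adjusted P = 2.4e-07, edgeR). The size of this change rests on few control counts (8, 0 and 2), and without control replicate 1 the log2 fold change was 7.04. It was the largest rise among the called Rik genes with a mean of at least 50 normalized counts, and the only one of the 4 called Rik risers to reach that mean. The other SPATA31 relative, Gm904, had a log2 fold change of 0.84 ± 0.24 and was not called.

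**Figure D1:**
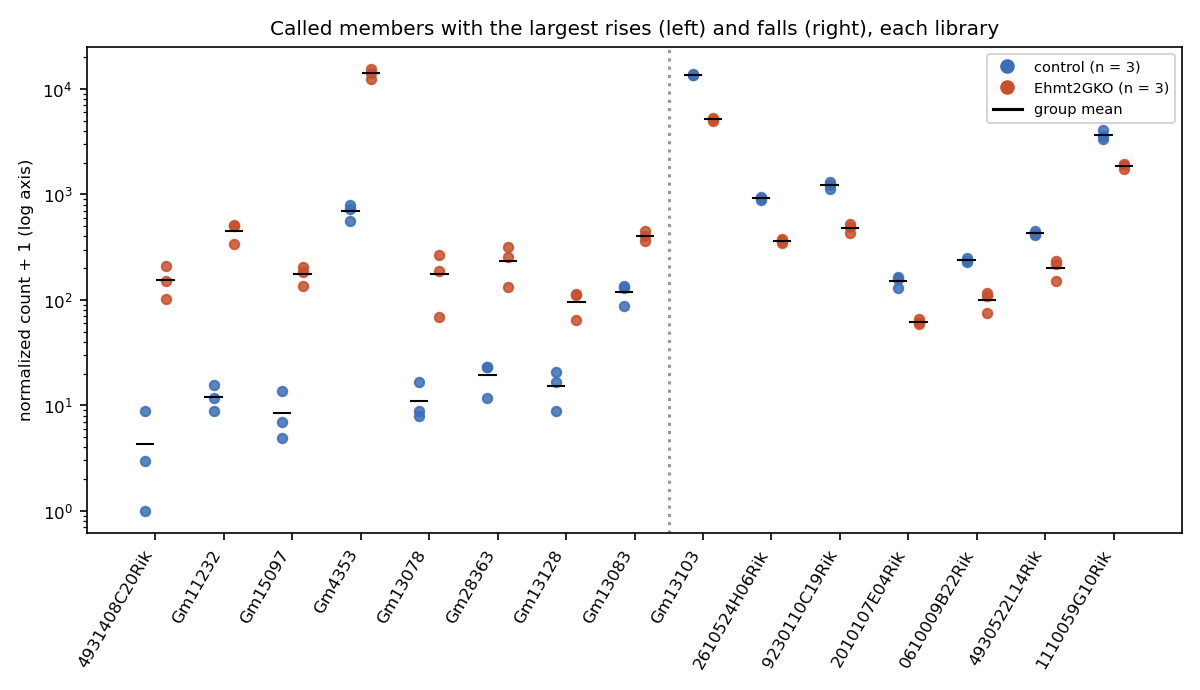
Normalized count plus 1 on a log axis for the called genes with the largest rises (left of the dotted line) and falls (right), each point 1 library (blue, control, n = 3; red, Ehmt2GKO, n = 3) and each bar a group mean. The groups do not overlap for any of the 15 genes, and the rises reach from 3.47-fold for Gm13083 to 40.9-fold for Gm11232, with 4931408C20Rik at 46.9-fold on control counts of 8, 0 and 2, while the largest fall, Gm13103, is 2.66-fold.

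Most of the tested takusan genes rose. All 13 listed members had a higher mean in Ehmt2GKO oocytes. Of the 12 tested, 9 were called higher and 0 lower, with a median log2 fold change of 1.61 and a range of 0.76 to 3.84. Over all tested genes 18.7% were called higher. The takusan genes had a median level of 44.8 normalized counts. Under a mean of 100 normalized counts, the share called higher among other tested protein-coding genes was 52.3%. A gene with few control reads could be listed and tested mainly through a rise, so these calls are a description and not support for a direction. Takusan proteins are related to an N-terminal part of Dlg5 and were described for their action at synapses. On chromosome 14, 10 members were listed, all tested, and 7 were called. The most abundant called member there, Gm5624, had normalized counts of 244, 234 and 261 in the control libraries and 713, 586 and 598 in the Ehmt2GKO libraries (log2 fold change 1.27 ± 0.14, adjusted P = 1.2e-06, edgeR). All 3 Ehmt2GKO values lay above all 3 control values, with a ratio of means of 2.57. The largest change on chromosome 14 was that of Gm8104, with 9.81, 8.7 and 4.83 against 43.2, 48.9 and 45.1 (log2 fold change 2.44 ± 0.39, adjusted P = 5.1e-05, edgeR).

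The 3 members on chromosome 5, Gm21083, Gm21149 and Gm7361, form their own sequence family, with coding sequences 93.2% to 98.6% identical. They were counted as takusan genes by a domain hit alone, and their transcripts closely matched named Speer4 genes. Gm21083 matched Speer4d at 98.6% of bases over 64.2% of its length. Gm21149 matched Speer4e at 98.2% over 96.9%, and Gm7361 matched Speer4a at 96.1% over 99.4%. Gm21083 had normalized counts of 3.92, 2.9 and 3.87 in the control libraries and 41.2, 78.7 and 49.3 in the Ehmt2GKO libraries (log2 fold change 3.84 ± 0.46, adjusted P = 2.5e-06, edgeR). Gm21149 was at 0 in all 3 controls and at 11.8, 6.38 and 7.35 in the Ehmt2GKO libraries, at least 2.83-fold higher when 3 counts per library are taken as the limit of detection. It was too low to be tested. Gm7361, with 84.4, 97.6 and 113 against 263, 231 and 192, was the riser nearest the fold threshold from inside (log2 fold change 1.13 ± 0.20), and without Ehmt2GKO replicate 3 it was no longer called (0.99).

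Near-identical relatives limit what single takusan genes can show. Gm9611 had 37 near-identical copies in the annotation and Gm17026 had 26, a near-identical copy being a transcript at least 95% identical over at least 50% of the length. Gm6526, the only takusan member of chromosome 14 with 0 such copies, had normalized counts of 321, 348 and 393 in the control libraries and 738, 721 and 639 in the Ehmt2GKO libraries. Its groups did not overlap, yet its log2 fold change of 0.89 ± 0.13 (adjusted P = 2.4e-05, edgeR) was under the fold threshold. The coding sequence of Gm6526 was still 97.6% identical to that of Gm8104, so reads can be shared between this pair as well.

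The rises among PRAME genes were all in members with few reads, and the fall was in an abundant one. PRAME proteins are leucine-rich repeat proteins whose genes have multiplied in mouse, and several are transcribed in oocytes or early embryos. Of the 14 listed members 12 were tested, 5 were called higher and 1 lower (41.7% and 8.33%). Over all tested genes the shares were 18.7% and 16.9%. The 7 members with a mean under 500 normalized counts all had higher means in Ehmt2GKO oocytes, and all 5 of these that were tested were called higher. Of the 7 members at or above 500 normalized counts, 6 had lower means and only C130073F10Rik had a higher one. The limit of 500 was chosen after the values were seen, and a gene with few control reads could be listed mainly through a rise.

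The fall of Gm13103, which RefSeq names Pramel27 (chr4:143846497-143853637, plus strand), was the largest among genes with a mean of at least 50 normalized counts. Its normalized counts were 13595, 13493 and 13967 in the control libraries and 5181, 5351 and 4919 in the Ehmt2GKO libraries. The control libraries lay within a narrow range and all 3 Ehmt2GKO libraries were below it, a 2.66-fold lower mean (log2 fold change -1.502 ± 0.10, adjusted P = 3.1e-09, edgeR). Gm13078, which RefSeq names Pramel24, lies beside it on chromosome 4 and went the other way, with normalized counts of 6.87, 7.73 and 15.5 in the control libraries and 186, 266 and 68.2 in the Ehmt2GKO libraries. The lowest of its Ehmt2GKO libraries was still above the highest control (log2 fold change 4.01 ± 0.47, adjusted P = 2.0e-06, edgeR). Gm13083 (Pramel21) had 87.3, 133 and 129 against 363, 404 and 445, and Gm13128 (Pramel30) had 19.6, 15.5 and 7.74 against 63.8, 112 and 110. Both rose, with log2 fold changes of 1.70 ± 0.18 and 2.63 ± 0.37 (adjusted P = 6.7e-07 and 1.4e-05, edgeR). The named PRAME genes inside the same stretch of chromosome 4, Pramef17 and Pramef6, rose by 1.65 ± 0.17 and 3.10 ± 0.35 on the log2 scale, and of the 3 listed PRAME genes with names these 2 were called. Gm13128 was 99.3% identical to Pramef17, so reads can be shared between them, and their counts may not be independent.

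In the other PRAME stretch of chromosome 4, B020004J07Rik (Pramel17) had 1.96, 1.93 and 0 against 27.5, 43.6 and 12.6 normalized counts, at least 9.29-fold higher against a limit of 3 counts per control library (adjusted P = 8.4e-05, edgeR). Gm12790 had 12.8, 14.5 and 14.5 against 43.2, 44.6 and 38.8 and was called higher (log2 fold change 1.501 ± 0.35, adjusted P = 0.0009, edgeR). C130073F10Rik, between them, had 2238, 1931 and 2362 against 3555, 3763 and 3575, a log2 fold change of 0.65 ± 0.10 that did not reach the threshold. Gm12800 was not tested, with 0.981, 0 and 3.87 against 7.85, 19.1 and 13.6. All 4 neighbours thus had higher means in Ehmt2GKO oocytes, and their levels differed widely.

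On chromosome 12 Gm10436 and Gm2042, relatives of the oocyte PRAME gene Oog1, were among the 5 unnamed genes with the highest mean normalized counts. Gm10436 (Pramel51), the highest, had normalized counts of 27076, 25334 and 26838 in the control libraries and 21223, 20763 and 17843 in the Ehmt2GKO libraries, or 10769 per kilobase of transcript in control and 8130 in Ehmt2GKO oocytes. Its log2 fold change of -0.50 ± 0.11 (adjusted P = 0.00054, edgeR) was under the threshold although the groups did not overlap. Gm2042 had 2829 and 2387 per kilobase (log2 fold change -0.34 ± 0.10), and Oog1 itself a log2 fold change of -0.51 ± 0.11. The coding sequences of Gm10436 and Gm2042 were 99.2% identical, so reads can be shared between these abundant copies, and they may not be separate measurements. By the same measure of level per kilobase, 4921524J17Rik stood at 8114 in control and 5779 in Ehmt2GKO oocytes, Gm13103 at 7466 and 2810, and Gm4353 at 442 and 8984. Gm4353 thus went from the lowest of these 5 most abundant genes in control to the highest in Ehmt2GKO oocytes.

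In the same stretch of chromosome 12 as the Oog1 relatives, 2 genes for proteins like the translation initiation factor eIF1A had low counts in control and more in Ehmt2GKO oocytes. Gm5039 had normalized counts of 11.8, 4.83 and 8.7 in the control libraries and 60.8, 76.5 and 80.8 in the Ehmt2GKO libraries (log2 fold change 2.995 ± 0.38, adjusted P = 4.4e-06, edgeR). Gm8332 had 0, 0 and 0.967 against 8.83, 18.1 and 11.5, at least 4.27-fold higher against the same limit, and was not tested. The coding sequences of Gm5039 and Gm8332 were 97.5% identical, so reads can be shared between them. Gm5039 was also on a list of gene families known for transcription at the 2-cell stage, made of symbols that start with Zscan4, Usp17l, Tcstv, Tdpoz, Obox or Eif1ad and of single named genes. Of that list 17 genes were in the table, 4 of them unnamed genes described here (Gm13078, Gm13083, Gm5039 and Gm7682). Of the 14 tested, 12 were called higher and 0 lower, beside 18.7% called higher over all tested genes. The other 2, Tcstv1 and Tcstv3, had log2 fold changes of -0.89 ± 0.11 and -0.99 ± 0.18 (adjusted P = 3.1e-06 and 0.00015, edgeR). Several of the called genes had few control counts, such as Usp17lc with 1, 2 and 2, and could pass the count filter through the Ehmt2GKO libraries alone. Of other protein-coding genes tested under a mean of 100 normalized counts, 52.3% were called higher. The calls on this list are therefore a description and not support for a direction.

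On the X chromosome the copies of Ott rose from near 0. Ott copies encode proteins of unknown action expressed in ovary and testis. All 5 listed members had higher means, and all 4 tested were called higher, beside 18.7% over all tested genes. Of other protein-coding genes tested under a mean of 100 normalized counts, 52.3% were called higher. With few control reads, the Ott copies could be listed and pass the count filter mainly through the Ehmt2GKO libraries. The calls on them therefore describe the table and are not support for a direction. Gm10439 (chrX:149594570-149636764, plus strand) had normalized counts of 0, 0 and 3.87 in the control libraries and 86.3, 72.3 and 55.6 in the Ehmt2GKO libraries (log2 fold change 5.57 ± 0.61, adjusted P = 1.1e-06, edgeR). Its fitted fold change rested on the 4 counts of control replicate 6, without which it was 9.11, and it is no measure of size. Gm15097 had 5.89, 3.87 and 12.6 in the control libraries and 204, 183 and 134 in the Ehmt2GKO libraries (log2 fold change 4.44 ± 0.36, adjusted P = 4.3e-08, edgeR). In Gm15091 the values were 1.96, 5.8 and 7.74 against 56.9, 54.2 and 63 (log2 fold change 3.37 ± 0.43, adjusted P = 4.8e-06, edgeR). For each of these genes the highest control library was far below the lowest Ehmt2GKO library. Gm15128, which joined the family by its coding sequence, was also called (log2 fold change 3.27 ± 0.47). Gm15114 was too low to be tested, with at most 1 count in a control library and at least 3.34-fold more in Ehmt2GKO oocytes. Luzp4, a relative with a name, rose by 5.49 ± 0.56 on the log2 scale, and Ott itself was listed and too low to be tested. Each of the 3 neighbours had 13 near-identical copies, so reads can be shared among them.

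On chromosome 10, Gm4302 and Gm4312 are copies of a gene for an Aly/REF-like protein, a kind of adaptor in the export of messenger RNA from the nucleus. Gm4302 had normalized counts of 0.981, 0.967 and 0 in the control libraries and 18.6, 27.6 and 38.8 in the Ehmt2GKO libraries, and Gm4312 had 0, 0.967 and 0 against 24.5, 37.2 and 47.2. No control library held more than 1 count of either gene, and every Ehmt2GKO library held many, at least 9.46-fold and 12.1-fold more against a limit of 3 counts per library (adjusted P = 1.1e-05 and 2.4e-06, edgeR). They had 10 and 11 near-identical copies. By coding sequence 4931428L18Rik belonged with them, but it had 655, 654 and 543 against 481, 321 and 326 and a log2 fold change of -0.80 ± 0.17, opposite in sign. A further pair of copies on chromosome 4, Gm11238 and Gm11487, whose coding sequences were 96.5% identical, were both called higher. Gm11238 had 0, 1.93 and 0 against 15.7, 12.8 and 12.6, and Gm11487 had 14.7, 16.4 and 17.4 against 43.2, 38.3 and 48.3 (log2 fold change 1.32 ± 0.34, adjusted P = 0.0018, edgeR).

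Most of the genes for KRAB zinc finger proteins, a class of repressors many of which bind repeats, were not called. Of 11 members, all tested, 1 was called higher and 1 lower (9.09% each), and 8 had a log2 fold change under 0, with a median of -0.54. Over all tested genes 18.7% were called higher and 16.9% lower. The KRAB genes had a median level of 1076 normalized counts. Among other protein-coding genes the shares were 11.3% and 12.2% from 100 to 1000 normalized counts, and 1.83% and 3.51% above 1000. The share called was thus not low for this level. The riser was Gm28363 (chr1:117697131-117727441, plus strand), with normalized counts of 10.8, 22.2 and 22.2 in the control libraries and 255, 313 and 131 in the Ehmt2GKO libraries (log2 fold change 3.56 ± 0.35, adjusted P = 2.7e-07, edgeR). Its neighbours B020011L13Rik, Gm7145 and Gm29106, with coding sequences 83.2% to 85.9% identical within the family, had log2 fold changes of -0.50, -0.56 and -0.54. Each of these 3 had a mean of more than 1000 normalized counts in control oocytes, where Gm28363 had 18.4. The faller was 4930522L14Rik, with 452, 416 and 409 against 216, 234 and 149 (log2 fold change -1.18 ± 0.17, adjusted P = 2.0e-05, edgeR), and without Ehmt2GKO replicate 5 its log2 fold change was -0.998 and it was no longer called.

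**Figure D2:**
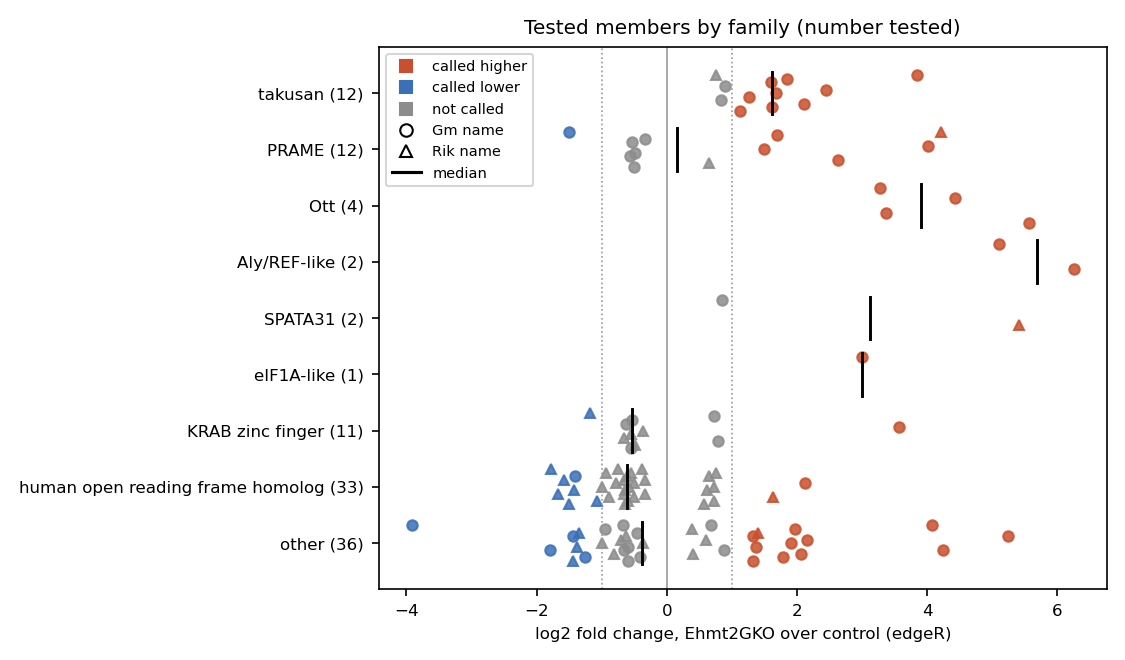
Log2 fold change (Ehmt2GKO over control) of each of the 113 tested genes by family, with the number tested in brackets, coloured by call (red higher, blue lower, grey not called). Circles are Gm and triangles Rik genes, and the bar is the family median. All 12 takusan and all 4 Ott genes lie above 0, PRAME genes lie on both sides, and most human open reading frame homologs lie between -1 and 0.

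Many of these genes lay in runs of neighbours. With gaps of up to 500 kb, 30 of the 121 genes lay in 8 runs of at least 3 neighbours, on chromosomes 1, 4, 5, 12, 14 and X, and with gaps of up to 200 kb or 1000 kb there were 7. Of 27 tested genes in runs 15 were called higher and 1 lower (55.6% and 3.7%). Of 86 tested genes outside runs 22 were called higher and 15 lower (25.6% and 17.4%). Over all tested genes the shares were 18.7% and 16.9%. The median of the mean normalized counts was 109 for genes in runs and 207 for genes outside. The parts of count level and of lying in a run cannot be told apart here. In the runs on chromosome 14 and X and the first run on chromosome 4 every gene had a higher mean in Ehmt2GKO oocytes. In the other runs neighbours diverged. On chromosome 5, Gm6205, Gm6367 and Gm3259 had coding sequences related to that of Gm7682 and log2 fold changes of -0.57, -0.48 and -0.53, and Gm3259 was the 1 gene of the runs whose groups overlapped. Gm7682, too low to be tested, had 0, 0.967 and 2.9 against 5.88, 11.7 and 18.9.

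**Figure D3:**
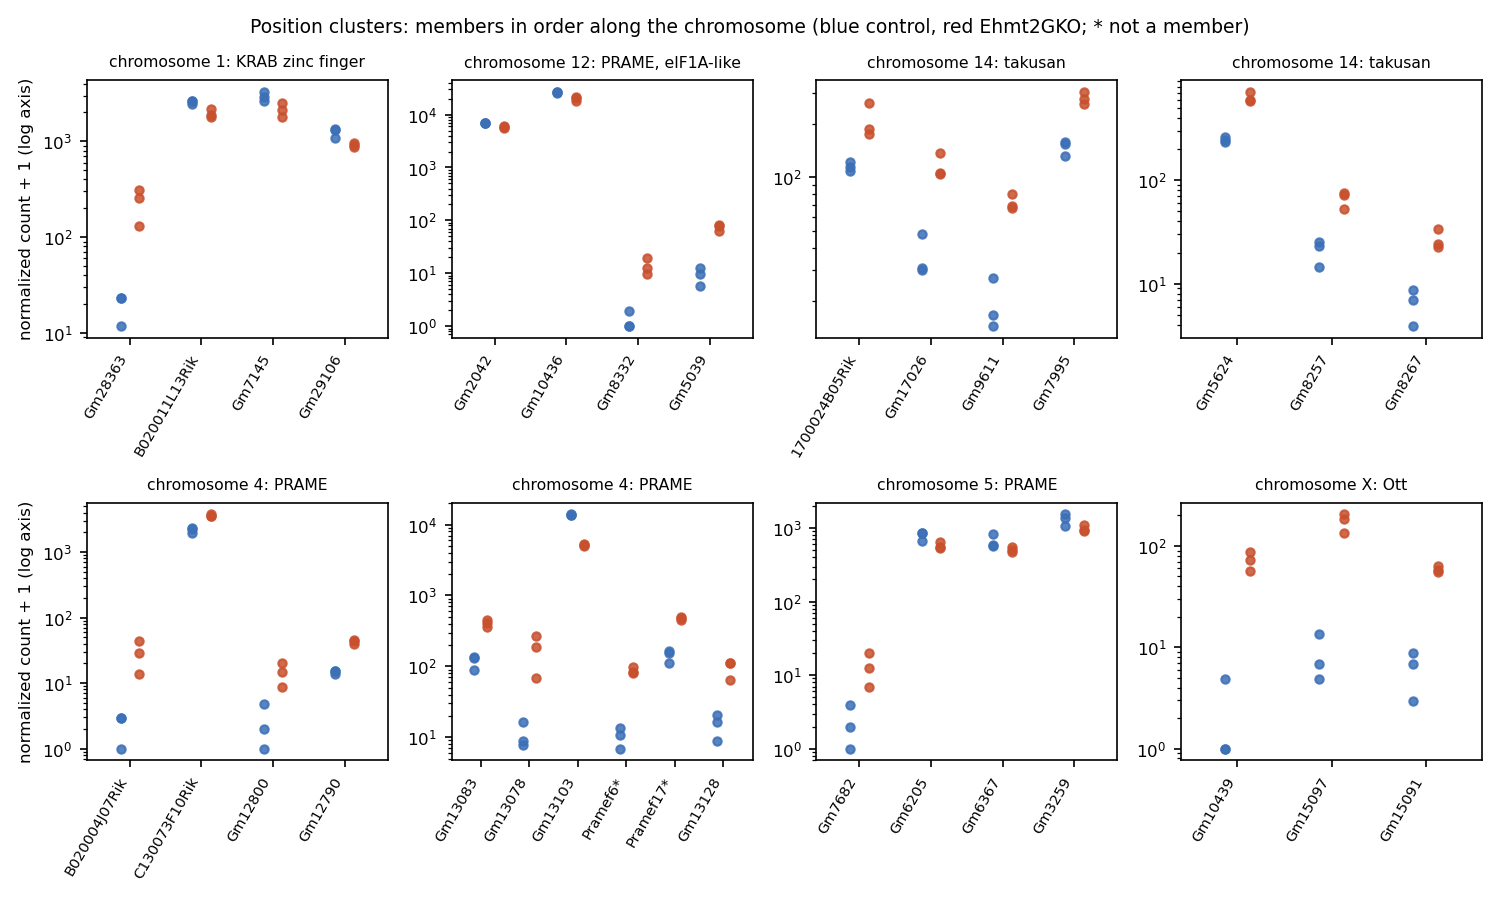
Normalized count plus 1 on a log axis in each library (blue control, red Ehmt2GKO, 3 points each) for the genes of the 8 runs, in order along each chromosome. An asterisk marks named PRAME genes inside a run. Genes with few reads in control oocytes are higher in Ehmt2GKO oocytes in every run, whereas neighbours at or above 500 normalized counts are lower in most. Only genes that differed are listed, so a gene with few control reads could enter mainly by a rise. This pattern is therefore no result about the runs, and the limit of 500 was set after the values were seen.

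A near-identical copy was present for 40 of the 68 Gm genes and for 3 of the 53 Rik genes. Among tested genes with such a copy 23 of 38 were called higher and 2 lower (60.5% and 5.26%). Among those without, 14 of 75 were called higher and 14 lower (18.7% each), near the 18.7% and 16.9% over all tested genes. The median of the mean normalized counts was 75.1 for genes with a copy and 319 for genes without. Of other protein-coding genes tested under 100 normalized counts 52.3% were called higher. The parts of count level and of having a copy cannot be told apart here. Within the Gm genes alone the counts were 23 higher and 1 lower of 35 with a copy, and 10 higher and 5 lower of 26 without. Whether shared reads moved these calls was not tested. Gm11232, 4931408C20Rik and B020004J07Rik rose with 0 near-identical copies in the annotation.

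Rik genes and other single-copy genes made up most of the falls. Of the 33 genes with a human open reading frame as counterpart, all tested, 7 were called lower (21.2%) and 2 higher (6.06%). Over all tested genes the shares were 16.9% and 18.7%, so the share called lower was near that of the table. Of the 33 genes, 25 had a log2 fold change under 0, beside 1272 of all 2516 tested genes. 9230110C19Rik, now Cfap300, which encodes a protein of cilia, had normalized counts of 1295, 1217 and 1129 in the control libraries and 494, 519 and 432 in the Ehmt2GKO libraries, a 2.52-fold lower mean (log2 fold change -1.43 ± 0.12, adjusted P = 8.9e-08, edgeR). 2610524H06Rik had 914, 952 and 891 in the control libraries and 363, 374 and 344 in the Ehmt2GKO libraries (log2 fold change -1.44 ± 0.12, adjusted P = 6.5e-08, edgeR). In both genes the highest Ehmt2GKO library was below the lowest control library by more than the range of either group.

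2010107E04Rik, now Atp5mpl, which encodes a small protein of the mitochondrial ATP synthase, had 155, 165 and 129 against 64.7, 60.6 and 57.7 (log2 fold change -1.38 ± 0.23, adjusted P = 5.4e-05, edgeR). 0610009B22Rik had 233, 247 and 225 against 108, 73.3 and 114 (log2 fold change -1.34 ± 0.20, adjusted P = 2.5e-05, edgeR). Both were lower in every Ehmt2GKO library. 1110059G10Rik, with 4061, 3606 and 3317 against 1939, 1906 and 1742, was the faller nearest the threshold from inside (log2 fold change -1.07 ± 0.11), and it was not called with RLE or upper-quartile scaling, with DESeq2 or without control replicate 1. Just outside it lay 1700028K03Rik at -0.998 ± 0.32 and 2310003L06Rik at -0.99 ± 0.30. The abundant 4921524J17Rik had 14040, 13041 and 11552 against 8959, 8432 and 10122 and a log2 fold change of -0.58 ± 0.11.

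The largest fall of all tested genes of both kinds was that of Gm4907 on the X chromosome (chrX:23882553-23907607, plus strand), which is named here after its values were seen because its mean was just under 50 normalized counts. Its normalized counts were 78.5, 91.8 and 97.7 in the control libraries and 10.8, 2.13 and 5.25 in the Ehmt2GKO libraries, a 14.8-fold lower mean (log2 fold change -3.92 ± 0.42, adjusted P = 7.3e-07, edgeR). On the X chromosome 6 of 10 tested genes were called higher and Gm4907 alone was called lower (60% and 10%). Over all tested genes the shares were 18.7% and 16.9%.

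The remaining 39 genes belonged to no family above, and of 36 tested 12 were called higher and 7 lower (33.3% and 19.4%). Gm4353, Gm11232 and Gm4907 are among them, and the median log2 fold change was -0.38. Over all tested genes 18.7% were called higher and 16.9% lower. Besides Gm21149, Gm15114, Gm12800, Gm7682 and Gm8332, the untested genes were Gm5414, Gm884 and 4933424G06Rik. Gm5414 and Gm884 had at most 1 count in a control library and means at least 2.34-fold and 3.83-fold higher in Ehmt2GKO oocytes against the limit of 3 counts. 4933424G06Rik was the only untested gene with a lower mean, at 19.6, 8.7 and 24.2 against 3.92, 4.25 and 1.05.

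Called risers had fewer CpG dinucleotides in their promoters than called fallers, a property that the choice of genes did not use. RefSeq windows of 300 bases on GRCm38.p6, from 250 before to 50 after the transcription start, were matched to 67 of the 121 genes, and for 56 of them the start lay within 1000 bases of the listed 5′ end. CpG, written CG on both strands alike, occurred 0 to 33 times in the windows of 17 called risers, with a median of 3, and 8 to 31 times in those of 10 called fallers, with a median of 25.5. The windows of 26 tested genes that were not called had a median of 10. Among other protein-coding genes the medians were 13 for 219 risers and 17 for 233 fallers, and over all 32851 RefSeq windows the median was 7. At most 5 CpG were present in 15 of 17 risers and 0 of 10 fallers, beside 29.2% of the other risers, 15.02% of the other fallers and 43.6% of all RefSeq windows. Every one of the 18 matched takusan, PRAME, Ott, Aly/REF-like and SPATA31 genes had at most 5 CpG. The kind of name went with this difference, since all 25 matched Gm genes together had a median of 3 CpG and the 31 Rik genes a median of 19. Among Gm genes 15 risers had a median of 3, the 2 fallers had 29 each and 5 genes that were not called had a median of 1. Gm genes that were not called were thus as poor in CpG as Gm risers. Among Rik genes the 2 risers had 0 and 33, 8 fallers had a median of 22 and 21 genes that were not called a median of 19. The part of promoter CpG and that of the kind of gene in the direction cannot be told apart here. Copies have copied promoters, so these genes are not independent, and no test was made.

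**Figure D4:**
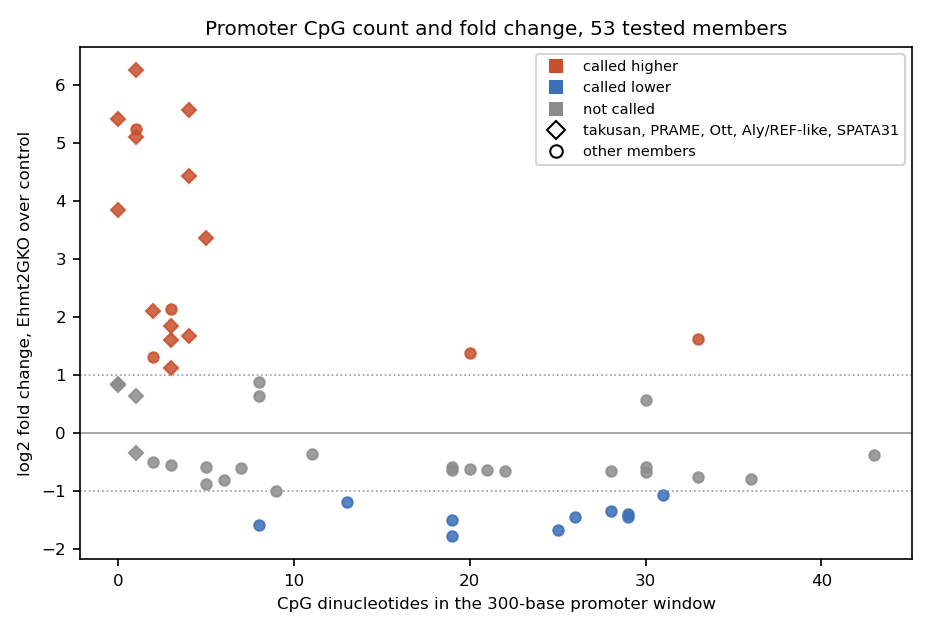
Log2 fold change (Ehmt2GKO over control) against the number of CpG dinucleotides in the 300-base promoter window for 53 tested genes, coloured by call, with diamonds for takusan, PRAME, Ott, Aly/REF-like and SPATA31 genes and circles for the others. Called rises lie at 0 to 5 CpG except 2 genes at 20 and 33, called falls lie at 8 to 31, and genes that were not called lie at 0 to 43.

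The sequences upstream of risers are shown beside those of fallers to make this difference visible, in 5′ to 3′ direction, in lower case with each CG in capitals, and without bases inside the listed gene. The 3 Ott copies are Gm10439 at chrX:149594351-149594569, plus strand; Gm15097 at chrX:149784254-149784472, plus strand; and Gm15091 at chrX:149941405-149941654, plus strand. Over the 219 bases that could be aligned without gaps, Gm10439 and Gm15097 differed at 2 positions, Gm10439 and Gm15091 at 6, and Gm15097 and Gm15091 at 4. The other risers are Gm4302 at chr10:100340586-100340835, plus strand, Gm21083 at chr5:15577043-15577292, plus strand and Gm11232 at chr4:71757966-71758210, minus strand. The fallers are Gm1673 at chr5:33983183-33983432, plus strand and 1110059G10Rik at chr9:122951001-122951250, minus strand. The risers hold 0 to 4 CG in these stretches, and the fallers hold 22 and 26.
Gm10439: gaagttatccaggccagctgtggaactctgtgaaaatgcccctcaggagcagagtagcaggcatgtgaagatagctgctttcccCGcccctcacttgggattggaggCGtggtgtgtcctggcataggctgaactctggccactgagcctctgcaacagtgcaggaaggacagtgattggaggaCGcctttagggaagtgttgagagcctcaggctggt
Gm15097: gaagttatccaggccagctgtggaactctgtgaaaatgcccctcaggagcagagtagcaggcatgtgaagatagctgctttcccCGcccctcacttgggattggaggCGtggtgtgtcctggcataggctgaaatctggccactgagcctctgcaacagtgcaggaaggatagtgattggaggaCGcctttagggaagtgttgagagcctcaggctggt
Gm15091: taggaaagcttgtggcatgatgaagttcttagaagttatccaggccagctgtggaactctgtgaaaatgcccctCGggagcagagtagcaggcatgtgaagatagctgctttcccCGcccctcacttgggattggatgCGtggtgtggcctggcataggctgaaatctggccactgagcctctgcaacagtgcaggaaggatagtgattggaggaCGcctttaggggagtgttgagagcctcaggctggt
Gm4302: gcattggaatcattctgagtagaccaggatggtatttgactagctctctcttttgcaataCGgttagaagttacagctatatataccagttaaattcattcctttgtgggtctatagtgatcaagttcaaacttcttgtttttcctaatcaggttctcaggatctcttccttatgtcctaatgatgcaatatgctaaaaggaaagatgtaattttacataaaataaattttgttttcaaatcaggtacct
Gm21083: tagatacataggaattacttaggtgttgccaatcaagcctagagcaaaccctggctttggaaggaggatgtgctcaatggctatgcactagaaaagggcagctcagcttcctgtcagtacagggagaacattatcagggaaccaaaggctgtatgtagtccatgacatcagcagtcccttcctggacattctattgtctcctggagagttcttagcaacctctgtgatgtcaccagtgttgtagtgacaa
Gm11232: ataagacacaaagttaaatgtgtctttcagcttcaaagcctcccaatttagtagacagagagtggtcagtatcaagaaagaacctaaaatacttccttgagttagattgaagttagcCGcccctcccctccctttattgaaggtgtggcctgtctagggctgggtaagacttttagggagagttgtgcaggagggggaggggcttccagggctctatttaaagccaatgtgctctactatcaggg
Gm1673: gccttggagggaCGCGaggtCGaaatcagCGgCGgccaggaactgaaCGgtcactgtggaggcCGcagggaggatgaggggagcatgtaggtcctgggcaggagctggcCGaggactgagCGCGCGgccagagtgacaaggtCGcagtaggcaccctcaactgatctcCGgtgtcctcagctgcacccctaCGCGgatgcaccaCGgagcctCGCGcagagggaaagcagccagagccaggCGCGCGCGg
1110059G10Rik: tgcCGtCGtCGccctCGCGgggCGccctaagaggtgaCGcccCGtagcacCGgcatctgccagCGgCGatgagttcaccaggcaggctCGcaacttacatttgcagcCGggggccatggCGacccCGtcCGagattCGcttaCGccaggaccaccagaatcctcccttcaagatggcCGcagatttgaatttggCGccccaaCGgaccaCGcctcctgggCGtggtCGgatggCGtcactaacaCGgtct

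Gm1673 had normalized counts of 56.9, 51.2 and 63.8 in the control libraries and 23.5, 24.4 and 21 in the Ehmt2GKO libraries (log2 fold change -1.40 ± 0.31, adjusted P = 0.00065, edgeR), all 3 Ehmt2GKO libraries being below all 3 controls. The letters TATAAA, on either strand, were in 3 of the 17 riser windows and 0 of the 10 faller windows, beside 16.9% and 10.3% for the other risers and fallers and 13.6% of all RefSeq windows. Repeat-masked bases made up a median of 13% of the riser windows and 7% of the faller windows, beside 7% and 6.67% in the other risers and fallers.

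The unnamed genes took a smaller share of reads after deletion. They held 3.04%, 2.94% and 2.96% of the reads on listed genes in the control libraries and 2.67%, 2.62% and 2.44% in the Ehmt2GKO libraries. Every Ehmt2GKO library was below every control, and without Gm4353 the shares were 3.03%, 2.92% and 2.94% against 2.37%, 2.27% and 2.13%. The mean of Gm10436 and that of Gm13103, both among the 5 most abundant of these genes, were both lower in Ehmt2GKO oocytes.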

How the data were processed

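Poly-A RNA of 3 control and 3 Ehmt2GKO oocyte libraries was amplified with the Smart-Seq v4 kit and sequenced; the 11 bisulfite libraries of the series were not used. The authors deposited raw counts per gene, 1 column per library, on GRCm38. HISAT2, FastQC and DESeq2 are named in the submitters' processing notes; the counting program, its treatment of reads that match several genes and the annotation are not given in the sources used here. The deposited table also holds the authors' own comparison (fold changes, P values and adjusted P values). Of these the deposited P values were read only to learn that all 2615 listed genes had an adjusted P value under 0.05, of an implied 15643 tested.

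Counts were fitted with edgeR 4.0.16 in R 4.3.3 (filterByExpr with a minimum count of 10, TMM, quasi-likelihood test, Benjamini-Hochberg adjustment over 2516 genes), and the scripts were tested on simulated data. Genes were called at a log2 fold change above 1 or below -1 with an adjusted P value under 0.01. The study's methods use the same fold and a P value under 0.01 without naming an adjustment. Normalized counts used DESeq2 1.42.0 size factors. Libraries of a group differed by more than sampling noise (chi-square per gene 11.1 to 24.9). Alternatives were other scalings, filters, tools (DESeq2, limma 3.58.1) and thresholds, and leaving out each library.

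The genes and lists were chosen with earlier results of these data known. Genes named were the 8 largest rises and falls among called genes with a mean of at least 50 normalized counts and no overlap, the 4 largest such Rik rises and falls, the 5 most abundant, those in runs of at least 3 neighbours or in sequence families, those with at most 3 counts in every library of 1 group and a mean of at least 20 in the other, and the 2 nearest the fold threshold on each side. Others were chosen after their values were seen. Families came from protein domain and protein name columns of the table. Sequence families joined coding sequences at least 80% identical over at least 50% of the shorter, by blastn 2.17.0 on GENCODE M21 transcripts, because protein sequences were not used here. Of the 121 genes 119 were found in GENCODE M21.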

Additional observations from a re-analysis of the deposited data

How the results depend on the processing

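No paired analysis was possible because replicates 1, 2 and 6 are controls and 3, 4 and 5 are Ehmt2GKO. The 37 genes called higher became 14 when at least 10 counts were required in every library, and 19 when edgeR's glmTreat tested for more than a 2-fold change. In the latter the 16 called lower became 4 and the 897 calls among all listed genes became 260. Of the calls, Gm genes gave 33 higher and 6 lower and Rik genes 4 higher and 10 lower. Leaving out each library gave 35 to 41 higher, 13 to 19 lower and 791 to 916 calls in all. The median log2 fold change of -0.34 was -0.25 with RLE size factors and -0.25 with upper-quartile scaling, and ran from -0.32 to 0.40 when libraries were left out, above 0 without control replicate 1 (0.34), 2 (0.0094) or 6 (0.40) or Ehmt2GKO replicate 3 (0.013). RLE scaling moved the median of all genes by 0.094. The cause of these changes was not tested. Of 53 tested named genes 37 kept their side of the thresholds in all 16 alternatives that could be run for them, 13 lost a call in at least 1, 3 gained one and 0 changed sign. All 13 lost it under glmTreat. Of the 27 named genes called higher 18 kept their call in every alternative, and of the 7 called lower 3 kept it. Genes with few counts limit the table most, since 8 of 121 could not be tested and 10 had at most 3 counts in every control library.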
